A study of Mus musculus with 9 samples.

Results

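In hippocampus of lupus-prone MRL/lpr mice, of MRL/lpr+MSC mice and of MRL/mpj controls, the expression of 10 genes was examined that mark disease-associated microglia, taken by name from the 47643 genes of the count matrix (Apoe, Trem2, Tyrobp, Cst7, Itgax, Clec7a, Lpl, Spp1, Axl and Cd9). Each of the 10 symbols matched 1 gene of the GENCODE annotation of GRCm38, whose coordinates are given below. Poly-A RNA of 9 libraries was sequenced, 3 per group, from mice at 6 weeks of age. MRL/mpj mice served as controls. In MRL/lpr mice, lupus arises on its own through the lpr allele of the death receptor gene Fas, and the third group, MRL/lpr+MSC, had in addition received mesenchymal stem cells. The study's methods name the strains MRL/MpJ and MRL/MpJ-Faslpr and describe perfusion with PBS before the hippocampus was taken, whereas the labels give C57BL/6 as the strain of all 9 libraries, with a wild type or an MRL-lpr genotype. Dose, route and time of the stem cells are not given in the sources used here. The methods describe no group treated with stem cells, so whether the mice of the third group were perfused in the same way is not stated either.

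Microglia are the resident macrophages of the brain. In models of neurodegeneration and with age, part of them leave the homeostatic state, in which they express P2ry12 and Tmem119, and take up a disease-associated state, described as a first step in which Apoe, Tyrobp and B2m rise and a later step that needs the lipid receptor Trem2 and adds Cst7, Itgax, Clec7a, Lpl, Spp1, Axl and Cd9. The state is known for phagocytosis and for the handling of lipids and lipoproteins. Several of the genes are also expressed outside microglia, with Apoe in astrocytes, Lpl in hippocampal neurons, Cd9 in oligodendrocytes and Axl in astrocytes and vascular cells. In whole tissue, fewer cells of a type and less RNA per cell cannot be told apart.

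Total counts ranged from 19475804 to 26912031 per library, and a count of 3, the most that a count of 0 allows, corresponded to between 0.105 and 0.163 CPM (the count scaled to a common library total) for counting error only. Hippocampal neuron markers (Prox1, Dsp, C1ql2, Wfs1, Fibcd1, Neurod6 and Grik4) were present in every library and summed to between 595 and 1165 CPM. Choroid plexus markers stood apart in MRL/lpr replicate 2 and MRL/lpr+MSC replicate 2, at 13301 and 6824 CPM in sum against 229 to 1724 CPM in the other 7 libraries. Fas did not separate MRL/lpr from MRL/mpj libraries, at 1.79 ± 0.469 against 1.83 ± 0.183 CPM (SD, n = 3 each), and had 1.30 ± 0.445 CPM (SD, n = 3) in MRL/lpr+MSC libraries. The expression table published with the study was compared with the counts over its first 1999 genes. In that table, each column named MRL/lpr stood in a fixed ratio to 1 library that GEO labels MRL/lpr+MSC at 100% of genes, within 0.1% of the ratio, and to any library that GEO labels MRL/lpr at no more than 1.01%. The labels were kept, and MRL/lpr and MRL/lpr+MSC mean the libraries labelled so. Which naming holds was not tested. Each group was compared with MRL/mpj on its own, and MRL/lpr+MSC was also compared with MRL/lpr. The sign of that direct comparison depends on the naming.

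The promoters of the 4 genes that had the largest ratios between MRL/lpr and MRL/mpj means are shown first, since Clec7a, Itgax and Cst7 were in the same order among the MRL/lpr libraries and Spp1 was not. Promoter windows of RefSeq (GRCm38.p6) were at hand for 8 of the 10 genes. The 250 bases before the start of transcription are given in the direction of the gene, in lower case, with capitals for the motif of PU.1, the factor of the myeloid lineage (GAGGAAGT), or of AP-1, the Fos and Jun factors (TGACTCA), on either strand. They lie at chr5:104434861-104435110 on the plus strand for Spp1, chr6:129472786-129473035 on the minus strand for Clec7a, chr7:128129300-128129549 on the plus strand for Itgax and chr2:150570165-150570414 on the plus strand for Cst7.
Spp1: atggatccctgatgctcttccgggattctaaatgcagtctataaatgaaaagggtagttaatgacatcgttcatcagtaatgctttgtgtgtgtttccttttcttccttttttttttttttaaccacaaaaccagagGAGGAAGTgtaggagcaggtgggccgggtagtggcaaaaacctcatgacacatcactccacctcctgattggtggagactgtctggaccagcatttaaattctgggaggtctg
Clec7a: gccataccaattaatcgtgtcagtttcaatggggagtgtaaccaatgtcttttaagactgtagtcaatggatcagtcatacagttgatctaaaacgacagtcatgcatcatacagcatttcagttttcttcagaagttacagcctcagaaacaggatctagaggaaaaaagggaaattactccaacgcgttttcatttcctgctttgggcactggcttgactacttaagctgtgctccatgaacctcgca
Itgax: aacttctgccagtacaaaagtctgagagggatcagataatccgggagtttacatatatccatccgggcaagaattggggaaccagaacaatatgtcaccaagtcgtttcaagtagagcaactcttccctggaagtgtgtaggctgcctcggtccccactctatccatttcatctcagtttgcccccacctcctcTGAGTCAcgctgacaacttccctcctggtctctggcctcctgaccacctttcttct
Cst7: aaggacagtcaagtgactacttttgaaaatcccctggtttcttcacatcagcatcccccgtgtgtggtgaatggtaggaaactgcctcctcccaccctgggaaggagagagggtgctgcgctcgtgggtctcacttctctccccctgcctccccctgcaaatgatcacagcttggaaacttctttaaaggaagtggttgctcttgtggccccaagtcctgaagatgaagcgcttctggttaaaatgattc
The Spp1 window held the PU.1 letters at position -113 and the Itgax window held the AP-1 letters, on the opposite strand, at position -56, both counted from the start of transcription. Over all 32851 windows of the table, which also hold the 50 bases after the start, 3.20% held the PU.1 letters and 5.20% held the AP-1 letters. Of the 12 windows of the 8 genes, 1 held each, and none held the E-box CACGTG, which 7.15% of all windows held. A match is a description of letters and not a site of binding. The windows of Clec7a and Cst7 held none of the 3 motifs.

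On a scale per gene length (FPKM, as deposited, which scales counts to gene length and library total), Apoe stood far above the other genes and Cst7, Itgax and Clec7a far below. In MRL/mpj libraries, Apoe, the main lipoprotein of the brain, had 870 ± 75.3 FPKM (SD, n = 3) and made up 91.6% of the summed level of the 10 genes. Lpl followed with 23.5 ± 2.43 FPKM, Cd9 with 21.9 ± 1.098, Tyrobp with 18.9 ± 0.411 and Axl with 11.8 ± 0.911 FPKM (SD, n = 3 each). Trem2 had 2.43 ± 0.491 FPKM and Spp1 had 0.908 ± 0.2998 (SD, n = 3 each). At the bottom stood Cst7 with 0.156 ± 0.0982, Itgax with 0.108 ± 0.0581 and Clec7a with 0.0734 ± 0.0366 FPKM (SD, n = 3 each). Of the neighbours in this order, Lpl and Cd9, Cst7 and Itgax, and Itgax and Clec7a overlapped between libraries, and the others did not. In MRL/lpr libraries, Spp1 stood above Trem2 without overlap, at 5.12 ± 1.95 against 2.81 ± 0.548 FPKM, and Lpl, at 13.1 ± 5.69 FPKM, overlapped with Tyrobp and Axl (SD, n = 3 each). Clec7a in MRL/lpr+MSC libraries, at 0.253 ± 0.0873 FPKM, stood above Cst7 without overlap, at 0.0936 ± 0.0407 FPKM (SD, n = 3 each).

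**Figure D1:**
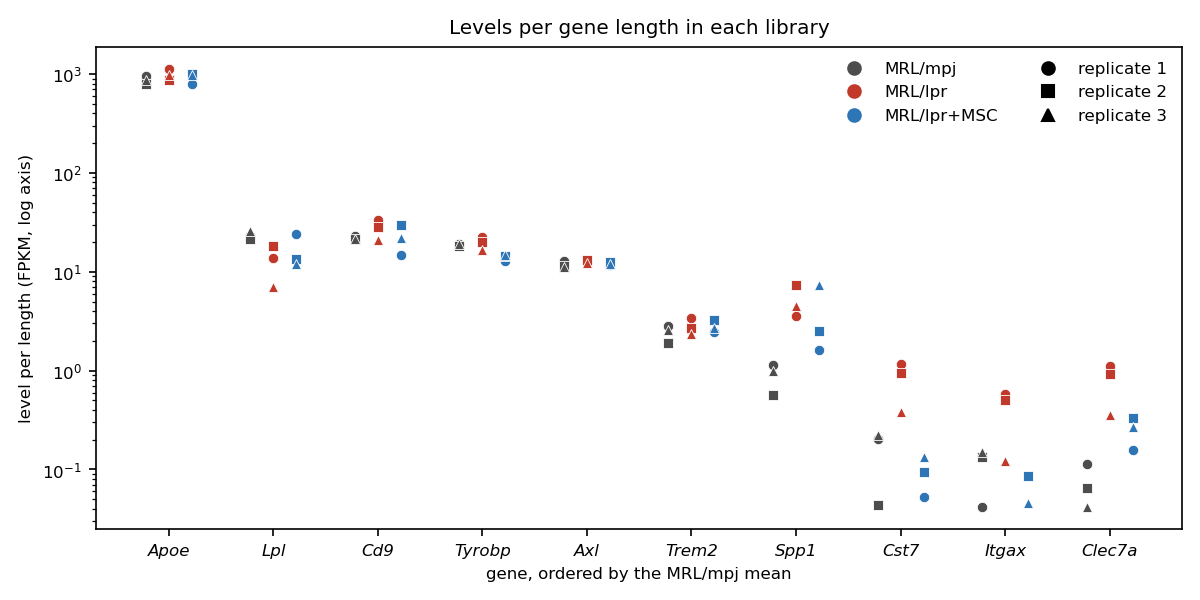
Level per gene length (FPKM, log axis) of the 10 genes in each library, with colours for the groups and symbols for the replicates, ordered by the MRL/mpj mean. Apoe lies between 797 and 1128 FPKM, and Cst7, Itgax and Clec7a are at most 0.223 FPKM in every MRL/mpj library; the value of 0 of Itgax in MRL/lpr+MSC replicate 1 cannot be drawn on a log axis.

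The first comparison asked how the genes stood in MRL/lpr against MRL/mpj hippocampus. Clec7a and Spp1 rose, by 9.50-fold and 5.59-fold, and no gene of the 10 fell under the rule for calls, a 1.5-fold change or more with an adjusted p below 0.05. Itgax and Cst7 were also higher on average, with low counts and wide spread, and Lpl was lower on average. Apoe, Trem2, Tyrobp, Axl and Cd9 had fitted fold changes between 1.06 and 1.25 that did not pass the test. Of the 10 genes, 9 passed the filter on low counts and 2 were called higher, against 3.41% of all 16697 genes tested called higher and 2.38% called lower. The median log2 fold change of the 9 genes was 0.26, against 0.02 over all genes tested. Because Clec7a passed the filter through the group in which it was high, the count over the genes that passed is a description.

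**Figure D2:**
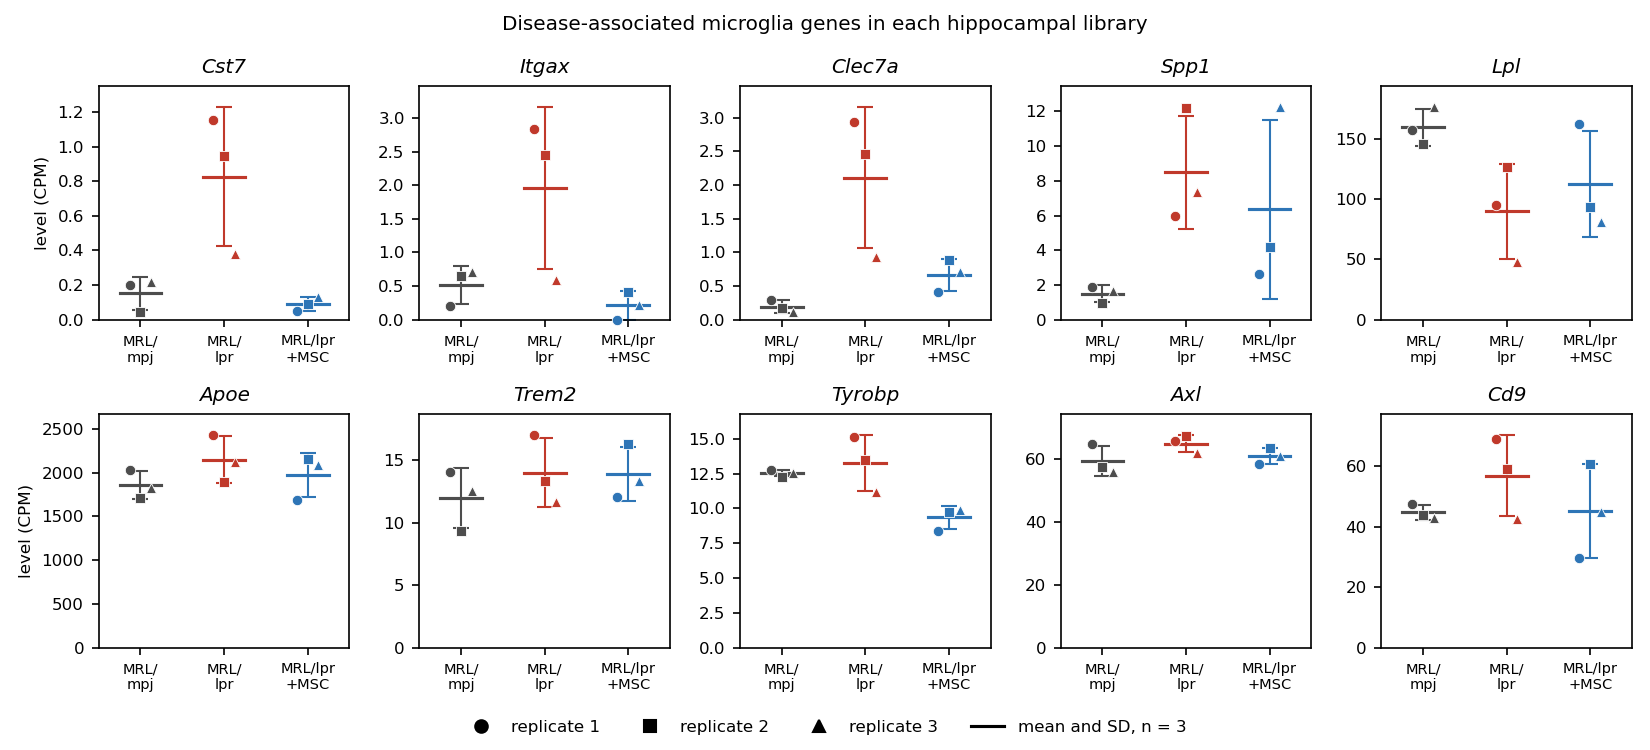
Level (CPM, axes from 0) of each gene in the 9 libraries, with points for libraries, symbols for replicates, and bars for mean and SD (n = 3; bars below 0 are not drawn). Clec7a, Cst7 and Spp1 are higher in all 3 MRL/lpr than in all 3 MRL/mpj libraries, and MRL/lpr replicate 3 is the lowest of its group for 8 of the 10 genes.

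Clec7a (ENSMUSG00000079293, chromosome 6, 129461591 to 129472779) encodes Dectin-1, a lectin receptor for beta-glucans that signals through Syk and Card9. It was at 0.2995, 0.172 and 0.109 CPM in the MRL/mpj libraries, at 2.94, 2.45 and 0.929 CPM in the MRL/lpr libraries and at 0.415, 0.882 and 0.707 CPM in the MRL/lpr+MSC libraries. All MRL/lpr libraries and all MRL/lpr+MSC libraries lay above all MRL/mpj libraries, and the lowest MRL/lpr library, replicate 3, lay just above the highest MRL/lpr+MSC library. The counts behind these values were 12 reads in sum in MRL/mpj, 163 in MRL/lpr and 43 in MRL/lpr+MSC libraries. The log2 fold change between MRL/lpr and MRL/mpj was 3.25 (SE 0.73, limma voom with Benjamini-Hochberg adjusted p = 0.0419), and its 95% confidence interval ran from 1.52 to 4.98. The call was lost without MRL/lpr replicate 1 (log2 fold change 2.90, limma voom adjusted p = 0.0867) and without any one of the MRL/mpj libraries (adjusted p = 0.145, 0.157 and 0.170). GENCODE lists Clec7a as a polymorphic pseudogene in its annotation of the reference strain.

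Spp1 (ENSMUSG00000029304, chromosome 5, 104435118 to 104441050) encodes osteopontin, a secreted phosphoprotein that binds Cd44 and integrins. It was at 1.90, 0.946 and 1.63 CPM in the MRL/mpj libraries, at 5.98, 12.2 and 7.35 CPM in the MRL/lpr libraries and at 2.65, 4.18 and 12.2 CPM in the MRL/lpr+MSC libraries. Every library of either MRL/lpr group lay above every MRL/mpj library, with MRL/lpr replicate 2 and MRL/lpr+MSC replicate 3 highest. The log2 fold change between MRL/lpr and MRL/mpj was 2.48 (SE 0.45, limma voom adjusted p = 0.0254), with a 95% confidence interval from 1.41 to 3.56. Without MRL/lpr replicate 2, the library with the highest choroid plexus signal, it was 2.21 (limma voom adjusted p = 0.00815). The call was lost without any one of the MRL/mpj libraries (adjusted p = 0.0969, 0.105 and 0.110). Of the exonic bases of Spp1, 309 (18.8%) are shared with Gm42793, an unverified transcript on the same strand, so that the counting could have assigned reads of this stretch to neither or to the other gene.

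Cst7 (ENSMUSG00000068129, chromosome 2, 150570415 to 150578944) encodes cystatin F, an inhibitor of cathepsins of the endosome and lysosome that is made by myeloid cells and cytotoxic lymphocytes. Its counts were 4, 1 and 4 in the MRL/mpj libraries, 33, 22 and 9 in the MRL/lpr libraries and 1, 2 and 3 in the MRL/lpr+MSC libraries. The MRL/lpr libraries, at 1.15, 0.947 and 0.380 CPM, lay above all others, and the remaining groups overlapped, between 0.0430 and 0.218 CPM in MRL/mpj and between 0.0519 and 0.133 CPM in MRL/lpr+MSC libraries. The ratio of the MRL/lpr to the MRL/mpj mean was 5.39, with an exact 95% interval from 2.67 to 12.3 that covers counting error only. Cst7 did not pass the filter on low counts. With no filter, its log2 fold change between MRL/lpr and MRL/mpj was 2.39 (SE 0.70, limma voom adjusted p = 0.0804), which did not pass the test. When a library was left out, the filter asked for 2 libraries, and Cst7 passed it through the MRL/lpr libraries, in which it was high. Its limma voom adjusted p was then 0.187, 0.228 and 0.193 without MRL/mpj replicates 1 to 3, and 0.028 without MRL/lpr replicate 3, the lowest of its group, so that this value is a description.

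Itgax (ENSMUSG00000030789, chromosome 7, 128129547 to 128150657) encodes the integrin CD11c, which pairs with the beta 2 integrin Itgb2 and also marks dendritic cells. Its counts were 4, 15 and 13 in the MRL/mpj libraries, 81, 57 and 14 in the MRL/lpr libraries and 0, 9 and 5 in the MRL/lpr+MSC libraries. In CPM, these were 0.200, 0.645 and 0.708, then 2.83, 2.45 and 0.591, and then 0, 0.418 and 0.221. MRL/lpr replicates 1 and 2 lay above all other libraries, while replicate 3 fell among the MRL/mpj libraries. The log2 fold change of 1.80 for MRL/lpr over MRL/mpj (SE 0.84, limma voom adjusted p = 0.202) did not pass the test. Without MRL/lpr replicate 3, the lowest of its group, it was 2.47 and passed (limma voom adjusted p = 0.0209), which is a description. Itgax was called in only this 1 of 15 other settings. Without MRL/mpj replicate 1, its log2 fold change was 1.27 (limma voom adjusted p = 0.443).

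Lpl (ENSMUSG00000015568, chromosome 8, 68880491 to 68907448) encodes lipoprotein lipase, which releases fatty acids from the triglycerides of lipoproteins. It was at 157, 145 and 176 CPM in the MRL/mpj libraries, at 95.0, 126 and 48.0 CPM in the MRL/lpr libraries and at 162, 93.5 and 81.4 CPM in the MRL/lpr+MSC libraries. The MRL/lpr libraries all lay below the MRL/mpj libraries, whereas MRL/lpr+MSC replicate 1 lay among them. The log2 fold change of -0.93 for MRL/lpr over MRL/mpj (SE 0.33, limma voom adjusted p = 0.121) did not pass the test. Lpl was called in 2 of 15 other settings. These were the fit without MRL/lpr replicate 2, the highest of its group (log2 fold change -1.22, limma voom adjusted p = 0.0318), and the fit with library quality weights (log2 fold change -0.86, limma voom adjusted p = 0.038).

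Apoe (ENSMUSG00000002985, chromosome 7, 19696109 to 19699188) encodes the apolipoprotein that carries lipids between glia and neurons and is a ligand of Trem2. It was at 2030, 1711 and 1828 CPM in the MRL/mpj libraries, at 2429, 1892 and 2118 CPM in the MRL/lpr libraries and at 1690, 2158 and 2083 CPM in the MRL/lpr+MSC libraries, and all groups overlapped. Trem2 (ENSMUSG00000023992, chromosome 17, 48346401 to 48354147), the receptor for lipids and lipoproteins, was at 14.0, 9.33 and 12.6 CPM in the MRL/mpj libraries, at 17.0, 13.3 and 11.6 CPM in the MRL/lpr libraries and at 12.1, 16.3 and 13.3 CPM in the MRL/lpr+MSC libraries. These groups overlapped as well. Tyrobp (ENSMUSG00000030579, chromosome 7, 30413760 to 30417585), also known as DAP12, is the adaptor through which Trem2 signals. It was at 12.8, 12.3 and 12.6 CPM in the MRL/mpj libraries, at 15.2, 13.5 and 11.2 CPM in the MRL/lpr libraries and at 8.40, 9.75 and 9.90 CPM in the MRL/lpr+MSC libraries. The MRL/lpr+MSC libraries lay below all others, and the MRL/lpr libraries lay on either side of the MRL/mpj libraries. In MRL/lpr against MRL/mpj, the log2 fold changes were 0.21 for Apoe (95% confidence interval -0.06 to 0.48), 0.26 for Trem2 (-0.23 to 0.75) and 0.08 for Tyrobp (-0.24 to 0.41), and none passed the test (limma voom adjusted p = 0.265, 0.424 and 0.709).

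Axl (ENSMUSG00000002602, chromosome 7, 25757273 to 25788705) encodes a receptor tyrosine kinase of the TAM family that binds Gas6 and takes part in the clearance of apoptotic cells. It was at 64.7, 57.3 and 55.7 CPM in the MRL/mpj libraries, at 65.7, 67.2 and 61.9 CPM in the MRL/lpr libraries and at 58.5, 63.6 and 60.9 CPM in the MRL/lpr+MSC libraries. The groups overlapped, and Axl had the least spread of the 10 genes within the MRL/lpr group, with a coefficient of variation of 4.19%. Cd9 (ENSMUSG00000030342, chromosome 6, 125460266 to 125494791) encodes a tetraspanin that associates with integrins in the cell membrane. It was at 47.5, 43.8 and 42.9 CPM in the MRL/mpj libraries, at 69.2, 59.0 and 42.5 CPM in the MRL/lpr libraries and at 29.7, 60.9 and 44.9 CPM in the MRL/lpr+MSC libraries. Cd9 spread more widely in either MRL/lpr group than in the MRL/mpj group, and all groups overlapped. The log2 fold changes in MRL/lpr against MRL/mpj were 0.14 for Axl (95% confidence interval -0.05 to 0.33) and 0.33 for Cd9 (-0.10 to 0.76), and neither passed the test (limma voom adjusted p = 0.284 and 0.268). Of the exonic bases of Cd9, 218 (10.7%) overlap Gm26728 on the opposite strand, and the sources used here do not say if reads were counted by strand.

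**Figure D3:**
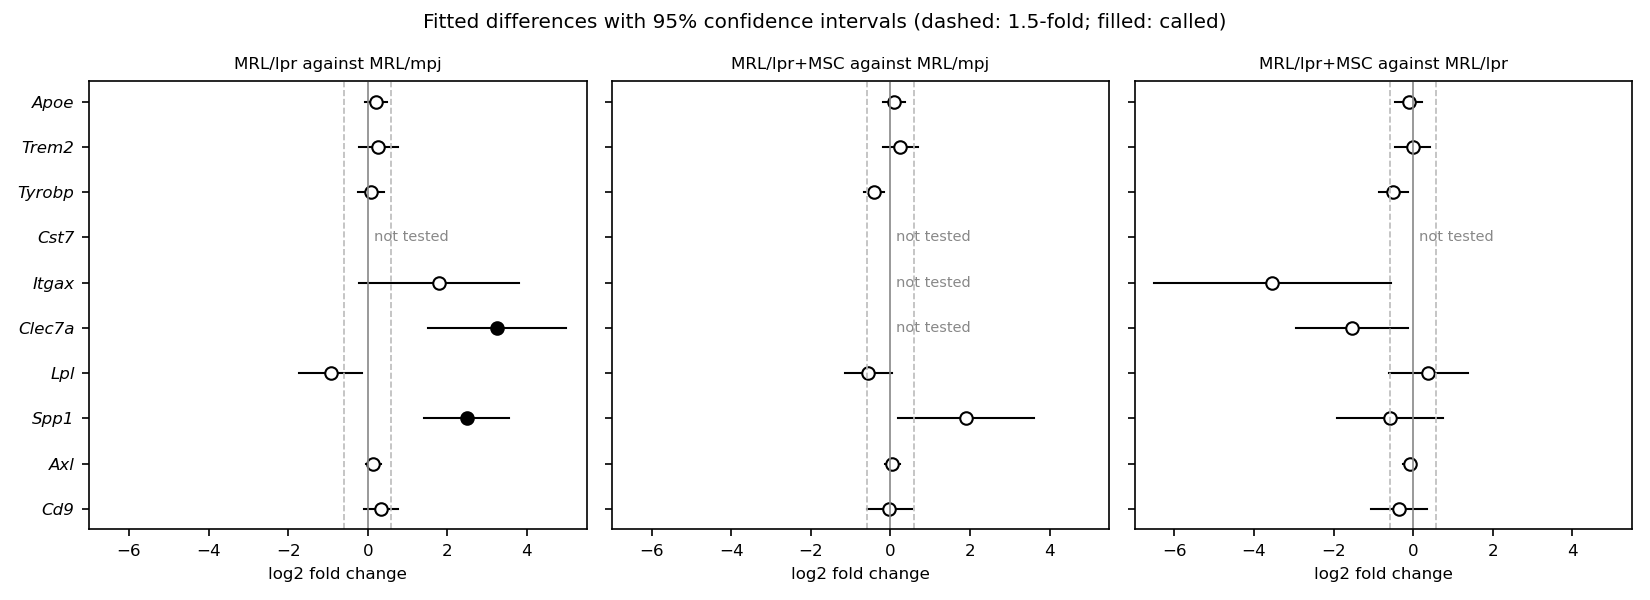
Fitted log2 fold change with its 95% confidence interval for each gene in the 3 comparisons, with filled points for called genes and dashed lines at a 1.5-fold change. Clec7a at 3.25 and Spp1 at 2.48 in MRL/lpr against MRL/mpj are the only filled points, and genes that did not pass the filter on low counts are marked as not tested.

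Against MRL/mpj, the MRL/lpr+MSC libraries showed a partly different picture. No gene of the 10 was called, against 1.93% of the 16196 genes tested called higher and 1.5% called lower. Spp1 was highest in fold, at a log2 fold change of 1.90 (SE 0.72, limma voom adjusted p = 0.181), and Clec7a had a ratio of means of 3.45 (exact 95% counting interval 1.79 to 7.19) without passing the filter. With no filter, the log2 fold change of Clec7a was 1.70 (limma voom adjusted p = 0.135). Tyrobp was lower in every MRL/lpr+MSC library than in any MRL/mpj library, at a log2 fold change of -0.42 (SE 0.11, limma voom adjusted p = 0.0818), which did not pass. The counting intervals of the ratios to MRL/mpj were 0.176 to 1.89 for Cst7 (ratio 0.602) and 0.203 to 0.794 for Itgax (ratio 0.412). Apoe, Trem2, Axl and Cd9 had log2 fold changes between -0.03 and 0.25, and Lpl was at -0.56 (limma voom adjusted p = 0.237). The median over the 7 genes tested was 0.05, against 0.01 over all genes tested. Without MRL/lpr+MSC replicate 1, which had the lowest level of its group for 9 of the 10 genes but the highest of Lpl, Lpl was called lower (log2 fold change -0.86, limma voom adjusted p = 0.00365). Clec7a passed the filter of 2 libraries in some of these fits through the MRL/lpr+MSC libraries, in which it was higher. Its limma voom adjusted p was 0.182, 0.268 and 0.280 without MRL/mpj replicates 1 to 3, and 0.0315 without MRL/lpr+MSC replicate 1, the lowest of its group, which is a description.

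In MRL/lpr+MSC against MRL/lpr, 8 of the 9 genes tested had a negative log2 fold change, and the median was -0.35 against 0.00 over all genes tested. Itgax passed the filter only through the MRL/lpr libraries, in which it was high, so that these counts and the median are a description. No gene of the 10 was called, and neither was any other of the 16758 genes tested by limma voom (0%). An unadjusted p under 0.05 was found for 3.86% of all genes tested and for 3 of the 10 genes, and limma-trend called none either. Itgax had a log2 fold change of -3.54 (95% confidence interval -6.52 to -0.56), Clec7a of -1.54 (-2.94 to -0.14) and Tyrobp of -0.50 (-0.87 to -0.12), each with a limma voom adjusted p = 0.921. In these 3 genes and in Cst7 the groups did not overlap, with a ratio of means for Cst7 of 0.112 (exact 95% counting interval 0.0396 to 0.257). Of all genes tested, 9.98% did not overlap between these groups. For the genes with higher counts the intervals were narrower, from -0.46 to 0.23 for Apoe, from -0.45 to 0.43 for Trem2 and from -0.25 to 0.08 for Axl. The interval of Spp1 ran from -1.92 to 0.75, and that of Lpl from -0.61 to 1.37. This comparison and the first share the MRL/lpr libraries, so that the higher level of Clec7a, Itgax and Cst7 in that group enters both.

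Counts of genes without overlap have a high background in these data. Between MRL/lpr and MRL/mpj, 38% of all genes tested did not overlap and 30.4% had an unadjusted p under 0.05, against 4 and 3 of the 10 genes. Between MRL/lpr+MSC and MRL/mpj, the shares were 29.6% and 22.9%, against 3 and 2 of the 10 genes. These counts of the 10 genes are near the background and are no result about them.

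The level of the 10 genes was also set against that of microglia marker genes in the same whole-tissue libraries, which is not a level per cell. The 13 homeostatic microglia genes had a median log2 fold change of -0.13 in MRL/lpr and -0.20 in MRL/lpr+MSC against MRL/mpj, and 1 of the 13 tested was called, Fcrls, a scavenger receptor-like gene of microglia, which fell from 20.6 ± 6.68 CPM to 6.78 ± 1.48 in MRL/lpr and to 6.78 ± 0.569 in MRL/lpr+MSC libraries (SD, n = 3 each). P2ry12, the purinergic receptor of resting microglia, went from 54.7 ± 1.83 CPM to 36.6 ± 3.48 (SD, n = 3 each) in MRL/lpr libraries, a log2 fold change of -0.57 (limma voom adjusted p = 0.0151) that was just short of 1.5-fold. Tmem119 and Csf1r, which also mark microglia, had log2 fold changes of -0.18 and 0.00 in the same comparison. Relative to the mean log2 level of the 13 genes in the same library, 9 of the 10 genes were higher in all MRL/lpr than in all MRL/mpj libraries, with Lpl as the exception. The difference was smallest for Tyrobp, at 0.32 on the log2 scale, and largest for Spp1, at 2.40. Of all genes tested, 38.9% were higher without overlap on this scale, so the fall of the homeostatic mean enters each such count. Cst7 did not pass the filter in this comparison, and 8 of the 9 genes tested were higher. Clec7a passed the filter through the MRL/lpr libraries, in which it was high, so both counts are a description. The count was 5 of 10 (Apoe, Trem2, Clec7a, Spp1 and Axl) in MRL/lpr+MSC against MRL/mpj libraries, where 46.2% of all genes tested were higher. Clec7a did not pass the filter there, and 4 of the 7 genes tested were higher, so this count is a description as well. In MRL/lpr+MSC against MRL/lpr libraries the count was 0 of 10, where 2.15% of all genes tested were higher. In that last comparison, 4 of 10 (Tyrobp, Cst7, Itgax and Clec7a) were lower without overlap, against 3.88% of all genes tested. Cst7 did not pass the filter there and Itgax passed it through the MRL/lpr libraries, so this count is a description. The homeostatic scale was added after the data were seen. Another scale, also not planned, was the mean log2 level of 11 myeloid genes that homeostatic and activated cells share. On it, Cst7, Clec7a and Spp1 were higher, and Tyrobp and Lpl lower, in all MRL/lpr than in all MRL/mpj libraries. With overlap, Itgax had a higher mean, and Apoe, Trem2, Axl and Cd9 had lower means, in MRL/lpr libraries. The share over all genes was not computed on this scale, so these orders are a description.

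Other genes of the disease-associated state did not move as 1 group. Of 7 other genes of the first step, 2 were called higher in either MRL/lpr group against MRL/mpj, B2m, the light chain of MHC class I, and Timp2, an inhibitor of metalloproteases. In MRL/lpr against MRL/mpj, these 2 calls became 0 with no filter and without any one of the MRL/mpj libraries, and 1 without MRL/lpr replicate 1. In MRL/lpr+MSC against MRL/mpj, they became 1 with no filter and without any one library other than MRL/lpr+MSC replicate 1. B2m was at 69.6, 56.8 and 63.9 CPM in MRL/mpj, at 399.6, 210.1 and 175.6 CPM in MRL/lpr and at 90.6, 137 and 149 CPM in MRL/lpr+MSC libraries. Of 18 other genes of the later step, 17 were tested and none was called higher in any comparison. Their log2 fold changes in MRL/lpr against MRL/mpj ran from -0.73 to 2.12. Of the 17, 11 were positive, against 52.8% of all genes tested. In MRL/lpr against MRL/mpj, Fabp5, a fatty acid binding protein, fell by 0.63 on the log2 scale (limma voom adjusted p = 0.0105), and in MRL/lpr+MSC against MRL/mpj, Gpnmb, a glycoprotein of phagocytes, fell by 1.501 (limma voom adjusted p = 0.0469). The median log2 fold changes in MRL/lpr against MRL/mpj were 0.21 for the genes of the first step and 0.15 for those of the later step, against 0.02 over all genes tested. The 11 myeloid genes that homeostatic and activated cells share had a median of 0.31, and 1 of them was called higher, Cyth4, an exchange factor of hematopoietic cells, from 18.6 ± 1.62 to 31.5 ± 3.46 CPM (SD, n = 3 each). Against MRL/mpj, none of the 11 was called in MRL/lpr+MSC libraries. In MRL/lpr against MRL/mpj, the calls of Fcrls and of Cyth4 were lost without any one of the MRL/mpj libraries and that of Fabp5 without MRL/mpj replicate 1 or 3, and the calls of Fcrls and Cyth4 also without MRL/lpr replicate 1. The call of Gpnmb was lost without any one library other than MRL/lpr+MSC replicate 1, and that of Fcrls in MRL/lpr+MSC against MRL/mpj without MRL/mpj replicate 1 or MRL/lpr+MSC replicate 2 or 3.

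**Figure D4:**
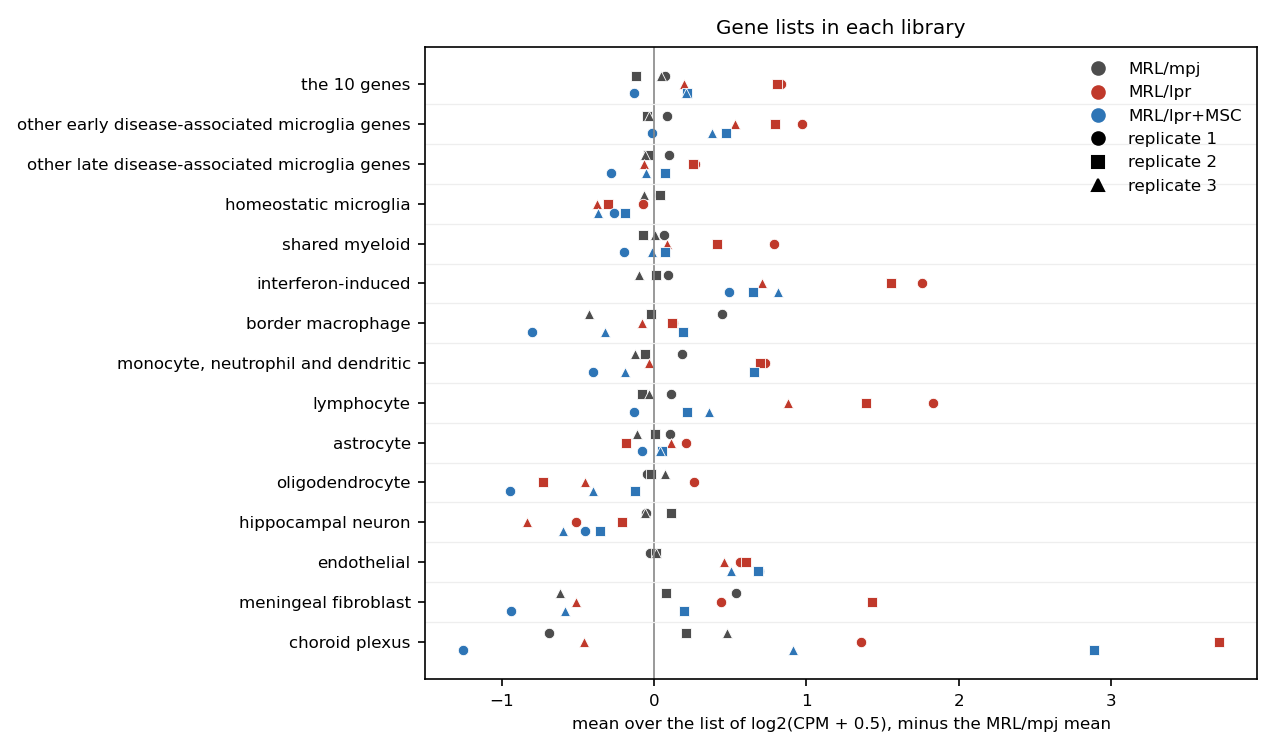
Mean over each gene list of log2(CPM + 0.5) in each library, minus the mean of the MRL/mpj libraries, with colours for groups and symbols for replicates. The 10 genes lie at 0.84, 0.81 and 0.19 in the MRL/lpr libraries and at -0.13, 0.21 and 0.21 in the MRL/lpr+MSC libraries, and the choroid plexus list reaches 3.71 in MRL/lpr replicate 2.

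Partners of the 10 genes showed few calls. Of 12 genes of Trem2 and Tyrobp signalling, 9 were tested and none was called in any comparison, and Syk, the kinase that Tyrobp recruits, had a log2 fold change of 0.57 in MRL/lpr against MRL/mpj (limma voom adjusted p = 0.132). Of 15 genes of lipoprotein handling, 14 were tested and 1 was called, Lcat, the enzyme that esterifies cholesterol in lipoproteins, which fell by 0.68 on the log2 scale in MRL/lpr against MRL/mpj (limma voom adjusted p = 0.038). In the same comparison, Abca1, the cholesterol exporter that lipidates Apoe, had a log2 fold change of 0.47 (limma voom adjusted p = 0.0392), short of 1.5-fold. Among the other TAM receptors and ligands, Mertk, a receptor for the engulfment of apoptotic cells, fell by 0.60 on the log2 scale in MRL/lpr against MRL/mpj (limma voom adjusted p = 0.0464), and Tyro3, Gas6 and Pros1 were not called. The call of Mertk lies at the limit of a 1.5-fold change. None of the 7 receptor genes of Spp1 was called, and Cd44 had a log2 fold change of 1.37 in MRL/lpr against MRL/mpj (limma voom adjusted p = 0.0745). Of 7 integrin and tetraspanin partners, 1 was called higher in MRL/lpr against MRL/mpj, Ptgfrn, a membrane protein bound by Cd9, from 19.4 ± 2.10 to 39.6 ± 5.69 CPM (SD, n = 3 each). The calls of Lcat, Mertk and Ptgfrn were lost without any one of the MRL/mpj libraries, that of Lcat also without MRL/lpr replicate 1 or 3, and that of Mertk also without MRL/lpr replicate 1 or 2. Of the 6 genes of Clec7a signalling and related lectins and the 5 relatives and target proteases of Cst7, none was called in any comparison, with 3 and 5 tested.

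The libraries of 1 group differed in a shared way. In the MRL/lpr group, replicate 1 was highest for 7 of the 10 genes and replicate 3 was lowest for 8. The ratio of the highest to the lowest MRL/lpr library was 4.79 for Itgax, 3.16 for Clec7a and 3.03 for Cst7, against 1.36 for Tyrobp and 1.09 for Axl. In the MRL/lpr+MSC group, replicate 1 was lowest for 9 of the 10 genes and highest for Lpl.

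Markers of other cells moved with some of the 10 genes. The 7 lymphocyte markers summed to 12.5, 7.97 and 4.39 CPM in MRL/lpr replicates 1 to 3, to between 0.473 and 1.20 CPM in MRL/mpj and to between 0.311 and 2.03 CPM in MRL/lpr+MSC libraries, so that MRL/lpr libraries were in the same order for these markers as for Clec7a, Itgax and Cst7. Of these 7 markers, 5 were tested and all 5 were called higher in MRL/lpr against MRL/mpj, among them the T cell receptor subunit Cd3e, and up to 3 of the 7 had no count in single MRL/mpj and MRL/lpr+MSC libraries. These 5 passed the filter through the MRL/lpr libraries, in which they were high, so that their count is a description, and it became 0 without any one of the MRL/mpj libraries and 2 without MRL/lpr replicate 1. The 10 markers of monocytes, neutrophils and dendritic cells summed to 34.9, 33.8 and 21.0 CPM in MRL/lpr, to between 18.6 and 21.6 CPM in MRL/mpj and to between 17.6 and 33.6 CPM in MRL/lpr+MSC libraries. Of these 10, Cd209a, a lectin of dendritic cells which passed the filter through the MRL/mpj libraries, was called lower in either group against MRL/mpj, and both calls were lost without any one of the MRL/mpj libraries. The call in MRL/lpr was also lost without MRL/lpr replicate 1 or 3, and that in MRL/lpr+MSC without MRL/lpr+MSC replicate 2 or 3. In MRL/lpr against MRL/mpj, 8 of the 10 were tested and none was called higher. Log2 fold changes of these 8 ran from -2.43 to 4.16, with 4 positive and a median of 0.26, against 0.02 over all genes tested. The 7 markers of border macrophages, none of which was called, summed to between 14.7 and 31.9 CPM in MRL/mpj, to between 18.5 and 23.0 CPM in MRL/lpr and to between 8.66 and 23.5 CPM in MRL/lpr+MSC libraries. The 14 interferon-induced genes summed to 146, 116 and 57.7 CPM in the MRL/lpr libraries against 32.2 to 34.7 CPM in MRL/mpj and 43.0 to 60.0 CPM in MRL/lpr+MSC libraries, and of the 13 tested 6 were called higher in MRL/lpr and 4 in MRL/lpr+MSC against MRL/mpj. The 6 became 0 without any one of the MRL/mpj libraries or without MRL/lpr replicate 1, and 13 without MRL/lpr replicate 3. The 4 became 0 without any one of the MRL/mpj libraries or without MRL/lpr+MSC replicate 3, with all 9 libraries in one fit and with a replicate block, and 1 without MRL/lpr+MSC replicate 2. The part of these cells and genes in the levels of Clec7a, Itgax and Cst7 was not tested.

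Spp1 and Lpl were set beside other lists and did not follow them in every library. Spp1 was at 12.2 CPM in MRL/lpr replicate 2, where choroid plexus markers were highest, but also at 12.2 CPM in MRL/lpr+MSC replicate 3, where the 8 choroid plexus markers summed to 953 CPM, within the MRL/mpj range of 416.9 to 1271 CPM. It was at 4.18 CPM in MRL/lpr+MSC replicate 2, where these markers summed to 6824 CPM. In MRL/lpr replicate 3, Spp1 was at 7.35 CPM and these markers at 270 CPM. The 5 meningeal fibroblast markers were likewise highest in MRL/lpr replicate 2, at 745 CPM against 141 to 287 CPM in MRL/mpj libraries. Lpl was lowest, at 48.0 CPM, in MRL/lpr replicate 3, where the 7 hippocampal neuron markers summed to 595 CPM, the lowest of the 9 libraries, against 962 to 1165 CPM in MRL/mpj libraries. Lpl was at 162 CPM in MRL/lpr+MSC replicate 1 with these markers at 749 CPM, so the order of the libraries was not the same throughout. Of the 7 markers, Fibcd1, a gene of pyramidal neurons of CA1, was called lower in either group against MRL/mpj (log2 fold change -1.11 in MRL/lpr and -0.79 in MRL/lpr+MSC, limma voom adjusted p = 0.0037 and 0.00876), and the call in MRL/lpr+MSC was lost without MRL/mpj replicate 2 or 3. The 6 oligodendrocyte markers were lowest in MRL/lpr+MSC replicate 1, at 4236 CPM in sum against 7551 to 8217 CPM in MRL/mpj libraries, and Cd9 was lowest in the same library. Slc17a7, a gene of excitatory neurons, was at 493 CPM in MRL/lpr replicate 3 and at 1802 CPM in MRL/lpr+MSC replicate 1, against 1429 to 1766 CPM in MRL/mpj libraries. None of the 6 astrocyte and 6 oligodendrocyte markers was called, with medians of 0.06 and -0.25 in MRL/lpr against MRL/mpj, and of the 4 endothelial markers Cldn5 and Kdr were called higher in either group against MRL/mpj, both lost in MRL/lpr without MRL/mpj replicate 3 and that of Cldn5 in MRL/lpr+MSC without any one of the MRL/mpj libraries. The part of tissue composition in the levels of Spp1, Lpl, Apoe, Axl and Cd9 was not tested.

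**Figure D5:**
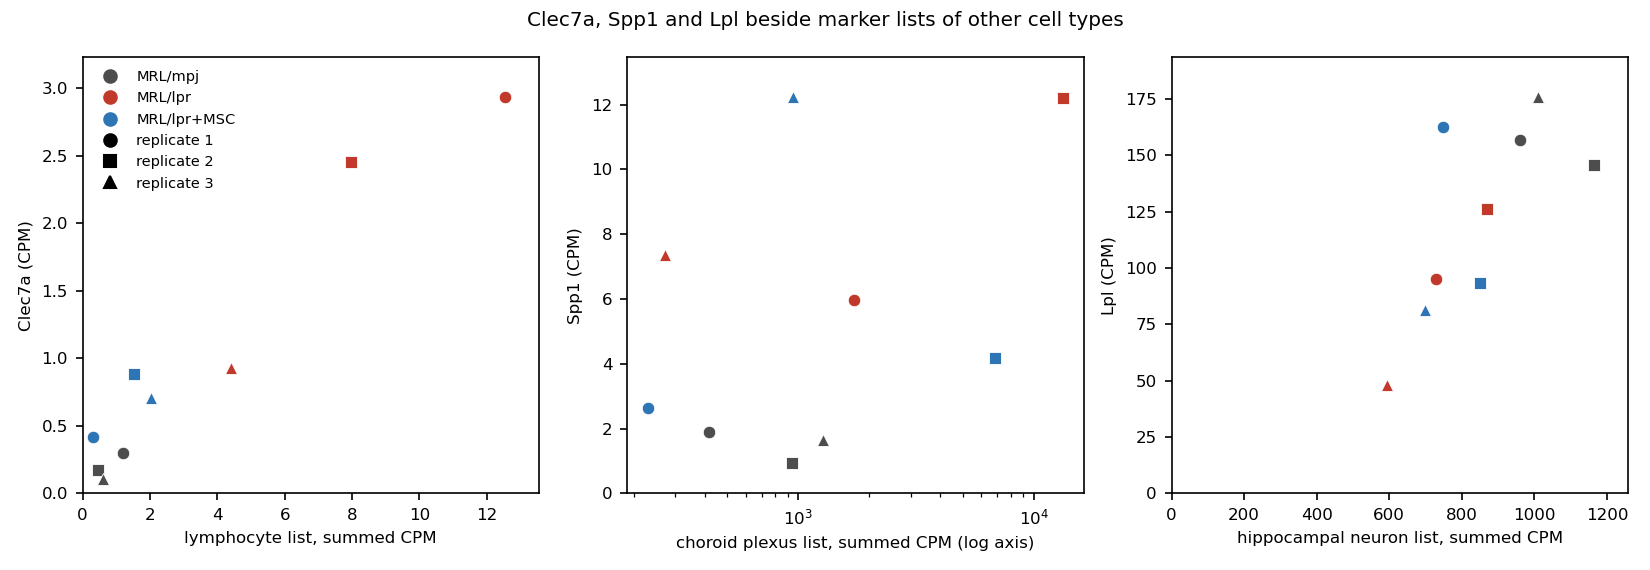
Level (CPM) of Clec7a, Spp1 and Lpl in each library against the summed CPM of the lymphocyte, choroid plexus (log axis) and hippocampal neuron lists. The MRL/lpr libraries have the highest lymphocyte sums, from 4.39 to 12.5 CPM, and the highest Clec7a levels; Spp1 is at 12.2 CPM at choroid plexus sums of 953 and 13301 CPM.

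As a description, the genes whose log2 CPM followed each gene most closely over the 9 libraries were sought among the 14943 genes that averaged 1 CPM or more. The 9 libraries form 3 groups and share their depth and tissue composition, and the highest of so many coefficients is high by choice. For Clec7a these were Ifitm3, Pik3ap1 and Cd52 (r = 0.992, 0.990 and 0.990), an interferon-induced membrane protein, an adaptor of PI3 kinase and a glycoprotein of leukocytes. For Itgax they were Slfn2, Syk and Mettl7a1 (r = 0.965, 0.964 and 0.961). For Lpl the closest was Slc17a7, the vesicular glutamate transporter of excitatory neurons (r = 0.992), and for Cd9 they included Pltp, the phospholipid transfer protein, and Cd82, another tetraspanin (r = 0.966 and 0.959). For Spp1, the closest were Nudt12, Med8 and Tmem176a (r = 0.973, 0.964 and 0.959), for Apoe Scarb2, Nkd1 and Ccdc121 (0.978, 0.972 and 0.967), and for Axl Srbd1, Vasp and Cyp1b1 (0.974, 0.971 and 0.968). Trem2 was followed most closely by Wdr90 (r = 0.964) and Tyrobp by Ewsr1 (r = 0.934). Cst7 did not pass the filter and was not searched, and Cst7, Itgax and Clec7a, which averaged under 1 CPM, could not be listed as neighbours.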

How the data were processed

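Hippocampal RNA of 9 libraries (3 MRL/mpj, 3 MRL/lpr, 3 MRL/lpr+MSC) was analysed from the deposited tables. Per the study's methods, the authors aligned reads to mm10 (GRCm38) with STAR and counted them with HTSeq, whereas the submitters' processing notes name TopHat2 and GRCm38. The authors deposited raw counts of 47643 genes without normalization, and FPKM values, which divide counts by gene length and library size, in 1 table per library. Of the value columns, 0 had no sample. Each of the 9 FPKM tables followed its own column of the matrix over 12235 genes.

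Groups came from the labels, which title the controls WT. The name MRL/mpj for the controls was taken from the study. The deposited counts were scaled by TMM (trimming 30% of log ratios and 5% of levels), CPM being scaled over all 9 libraries. Each comparison was fitted on its 6 libraries in R 4.3.3 by limma voom (limma 3.58.1) under robust moderation (statmod 1.5.0), and p-values were adjusted by Benjamini-Hochberg across every gene tested. Genes were tested when at least 3 libraries reached the CPM of 10 counts at median depth, with a total of at least 15, or at least 2 libraries where a library was left out. Called means a change of 1.5-fold or more with adjusted p below 0.05. The quasi-likelihood test intended for the counts, and a Wald test to compare with it, were not run, because the separator of the matrix kept its unit from being registered as counts; limma voom took their place. The fit was tested on simulated data with the same spread between libraries for every gene and no library set apart. That run checks the code and not how the fit behaves at the spread of these libraries. The study's heat maps of MRL/mpj and MRL/lpr hippocampus are described as having an individual mouse in each column. For a group given stem cells, only the replicate numbers speak for separate mice. The p-values measure the spread between these libraries.

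The 10 genes, the 21 gene lists and the tests were chosen with earlier results of these data known. Named genes were the 10 genes, Fas, P2ry12, Tmem119, Csf1r, genes of the lists that were called or among the 4 with the smallest p in MRL/lpr against MRL/mpj, and the 3 genes closest to each of the 10; some genes that the rule names are not reported here. Of 47643 genes, 47224 had a symbol in GENCODE. Protein sequences, and promoters of Lpl and Tyrobp, were not used here.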

Additional observations from a re-analysis of the deposited data

How the results depend on the processing

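Over 15 other settings per comparison, 349 fold changes of the 10 genes kept their sign and their side of the threshold, 10 turned sign, 11 lost the call and 5 gained it, counting genes that passed the filter, and the cause was not tested. The turns were in genes that were not called. Leaving out single libraries gave log2 fold changes of -0.030 (without MRL/lpr replicate 1) to 0.20 for Tyrobp in MRL/lpr against MRL/mpj. In MRL/lpr+MSC against MRL/mpj, it gave -0.29 to 0.23 for Cd9, with 0.0064 without MRL/mpj replicate 1, and -8.0e-05 to 0.11 for Axl. In MRL/lpr+MSC against MRL/lpr, it gave -0.018 to 0.67 for Lpl and -0.13 to 0.16 for Trem2. Library quality weights gave 0.12 for Cd9, and limma-trend gave 0.0020 for Trem2, in these same comparisons. Of the 10 genes, 2 were called in MRL/lpr against MRL/mpj. It was 1 with a mean of at least 1 CPM (Clec7a adjusted p = 0.0522 by limma voom) and with all 9 libraries in one fit (Spp1 adjusted p = 0.0597). It was 0 with a test against a 1.5-fold change and 3 with library quality weights, where Lpl was called lower (adjusted p = 0.038 by limma voom). It was between 0 and 4 without single libraries, where the filter asked for 2 libraries and so let in Cst7. In MRL/lpr+MSC against MRL/mpj it was 0, but 1 with library quality weights (Lpl) and between 0 and 2 without single libraries, with Clec7a let in by that filter. Over all genes, the 967 called in MRL/lpr against MRL/mpj became 104 with a test against a 1.5-fold change, 2065 with library quality weights and 165 to 1695 without single libraries. The 556 of MRL/lpr+MSC against MRL/mpj became 100, 1177 and 193 to 1514. MRL/lpr+MSC against MRL/lpr had 0 calls in every setting. Quality weights, limma-trend and moderation without the robust option were chosen after the data were seen.

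The replicate numbers were not taken to pair the libraries, and a partial pairing or batch was not tested. Deviations of same-numbered libraries correlated between -0.21 and 0.40, not above 0.1 in every pair of any comparison. For replicates 2 and 3, but not 1, the same-numbered library of the other group was the closest in all 3 comparisons. With the number as a replicate block, Clec7a and Spp1 were called in MRL/lpr against MRL/mpj (adjusted p = 0.0195 and 0.0368 by limma voom), and the calls over all genes were 1127, 283 and 0 in the 3 comparisons.

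Depth limits Cst7, Itgax and Clec7a, whose counts were 0 to 19 in every MRL/mpj and MRL/lpr+MSC library. The quasi-likelihood and the other count test were not run.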
